A study of Homo sapiens with 7 samples.

Results

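The genes for the proteasome, the protease that degrades ubiquitin-tagged proteins, were followed through Rb CUT&RUN peak lists of breast cancer cells. Members were all protein-coding genes on chromosomes 1 to 22 and X whose symbol begins with PSMA to PSMG and a digit. The rule used no measured value and found 50 of 19970 protein-coding genes, of which 48 encode subunits, activators, an inhibitor or assembly chaperones. PSMC3IP and PSME3IP1 match by symbol only and encode no part of the proteasome. CUT&RUN releases and sequences the DNA fragments around an antibody-bound protein, here Rb, the retinoblastoma protein encoded by RB1. All libraries came from ZR-75-1, a long-established breast cancer line that expresses the oestrogen receptor. Parental cells received DMSO (2 libraries) or 500 nM palbociclib, a CDK4/6 inhibitor (2 libraries), for 4 days. RB1 KO cells, which the study made by CRISPR and grew from sorted single cells, gave 1 Rb library with DMSO and 1 with palbociclib at the same dose and time. Parental cells with palbociclib also gave 1 library with IgG2a, an antibody with no target, as negative control. The comparison of parental cells asks where Rb is found on chromatin when the kinases that phosphorylate it are inhibited.

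The proteasome is a barrel-shaped core particle of stacked alpha and beta rings, capped by a regulatory particle. The beta rings carry the proteolytic sites, the base of the cap unfolds substrates with a ring of ATPases, and the lid removes ubiquitin. Under interferon, the catalytic beta subunits are exchanged for PSMB8, PSMB9 and PSMB10, which form the immunoproteasome, and the PSME1 and PSME2 activator is induced. When proteasomes are inhibited, the transcription factor NFE2L1 activates the subunit genes together through antioxidant response element (ARE) motifs in their promoters. Hypophosphorylated Rb binds E2F transcription factors and represses their target genes.

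The lists held 996 and 816 peaks with DMSO and 8399 and 8256 with palbociclib, of which 922, 753, 8314 and 8171 lay on the chromosomes used. The RB1 KO lists held 4 peaks (DMSO) and 5 peaks (palbociclib) on these chromosomes, and the IgG2a list held 1724. Read totals are not part of peak lists. The lowest local background recovered from each parental Rb list, which scales with depth, was similar, at 0.571 and 0.465 fragments (DMSO) and 0.516 and 0.549 fragments (palbociclib). A gene was counted as called when a peak touched its promoter, taken as 2000 bp before to 500 bp after any of its transcription start sites (TSSs). A list holds only what passed a q-value of 0.05, so a missing peak does not show that Rb was absent. The study describes its replicates as independent biological cultures, which the labels do not state for these libraries.

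More proteasome genes had a promoter Rb peak with palbociclib than with DMSO in both replicates. With DMSO, 7 members were called in replicate 1 and 7 in replicate 2, against 5.2% and 4.25% of the 19920 other protein-coding genes. With palbociclib, 31 and 29 members were called, against 39.6% and 39% of other genes. The groups did not overlap, and the member share was 14% ± 0 with DMSO and 60% ± 2.83 with palbociclib (SD, n = 2 libraries each). Over other genes the shares were 4.73% ± 0.671 and 39.3% ± 0.444. With 2 libraries against 2 there are 6 splits, and an exact two-sided permutation test cannot give a p below 0.3333, so the values carry the comparison. These counts moved with list length. With only the top 816 peaks of each parental list kept, 4 members remained in both DMSO lists (PSMA1, PSMB10, PSMC3IP and PSMC5). In both palbociclib lists 2 remained (PSMB10 and PSMC5), so the order of the member counts turned. This cut by construction removes most of the longer palbociclib lists. The ratio of the member share to that of other genes was then 3.02 with DMSO and 1.05 with palbociclib. The shares of other genes at this length are not reported here.

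**Figure D1:**
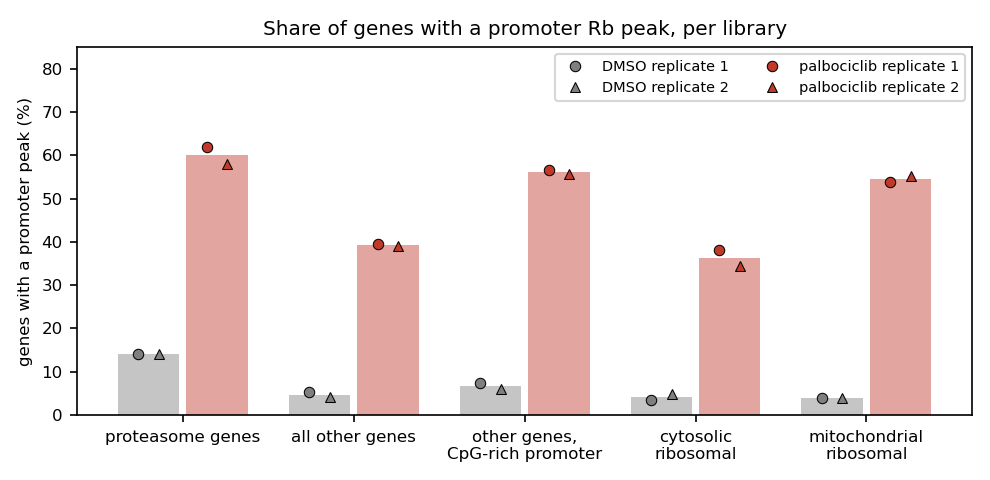
Share of genes with a promoter Rb peak (%, y axis) in each parental library, for proteasome genes and 4 sets of other genes. Bars are means of 2 libraries and symbols are the libraries. Proteasome genes stood at 14% in both DMSO libraries and at 62% and 58% with palbociclib, beside 56.5% and 55.6% for other genes with a CpG-rich promoter.

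No member had a promoter peak in either RB1 KO list, where 0.00502% of other genes, 1 gene in each list, had a peak. The peak lists cannot show the RB1 deletion itself. In the IgG2a list 1 member was called, PSMG2, against 1.95% of other genes. The control used to call the IgG2a list is not given in the sources used here. If this library served as the IgG control of the Rb calls, a low overlap between the lists is partly built in.

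Both DMSO replicates called 5 members (10%, exact 95% binomial interval 3.33 to 21.8%), against 2.89% of other genes. Both palbociclib replicates called 26 members (52%, interval 37.4 to 66.3%), against 34.9% of other genes. These intervals cover counting error only. They treat members as independent, although PSMB8 and PSMB9 were called through the same peaks, and they are no test against other genes. With lists of equal length the 26 became 2, and the ratio of the member share to that of other genes went from 1.49 to 1.05. At least 1 palbociclib list called 34 members (68%), against 43.7%, and at least 1 DMSO list called 9 (18%), against 6.57%. Of the 26, 17 had no DMSO peak (34% of members, interval 21.2 to 48.8%), against 28.3% of other genes. No member, and 0% of other genes, was called in both DMSO lists and in no palbociclib list. The replicates can be compared by how often a gene seen in either list was in both. Both palbociclib lists held 26 of the 34 members seen in either (76.5%, other genes 79.9%), and both DMSO lists 5 of 9 (55.6%, other genes 43.96%).

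For calls in both replicates, other genes had a higher share with CpG-rich promoters than over all, but members did not. With palbociclib the shares over all promoters were 34.9% for other genes and 52% for members. A promoter was called CpG-rich when its GC content was at least 50% and its observed over expected CpG ratio at least 0.6 in the RefSeq promoter window. Of the 44 members with such a window, 35 were CpG-rich, and 17 of these 35 (48.6%) were called in both palbociclib lists, against 50.02% of 9802 other CpG-rich genes. With DMSO the shares were 3 of 35 (8.57%) and 4.15%. In both palbociclib lists and no DMSO list were 12 of 35 (34.3%), against 40.6% of other CpG-rich genes. Members were thus lower here, while over all promoters they were higher, at 34% against 28.3%. The part of promoter type in the member shares was not tested. The ribosomal protein genes are other large sets of steadily expressed genes. Both palbociclib lists held 26 of 84 cytosolic ribosomal protein genes (31.0%) and 38 of 78 mitochondrial ones (48.7%), and both DMSO lists held 2.38% and 0% of them.

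Calls in both palbociclib lists are given here by role in the complex, with few genes in each. Over all members the share was 52%, and over other genes it was 34.9%. In the alpha rings 4 of 7 genes were in both palbociclib lists, and in the constitutive beta rings 2 of 7. Of the variant core subunits, which are used under interferon or in testis or thymus, 3 of 5 were called. Of the base, 2 of 6 ATPases and 3 of 3 other subunits were called. The lid had 4 of 8. All 4 chaperones of core assembly, PSMG1 to PSMG4, were called, and 0 of 3 chaperones of the regulatory particle. Among activators and the inhibitor PSMF1, 3 of 5 were called, and of the genes that match by name only, 1 of 2. Differences between roles were not tested.

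**Figure D2:**
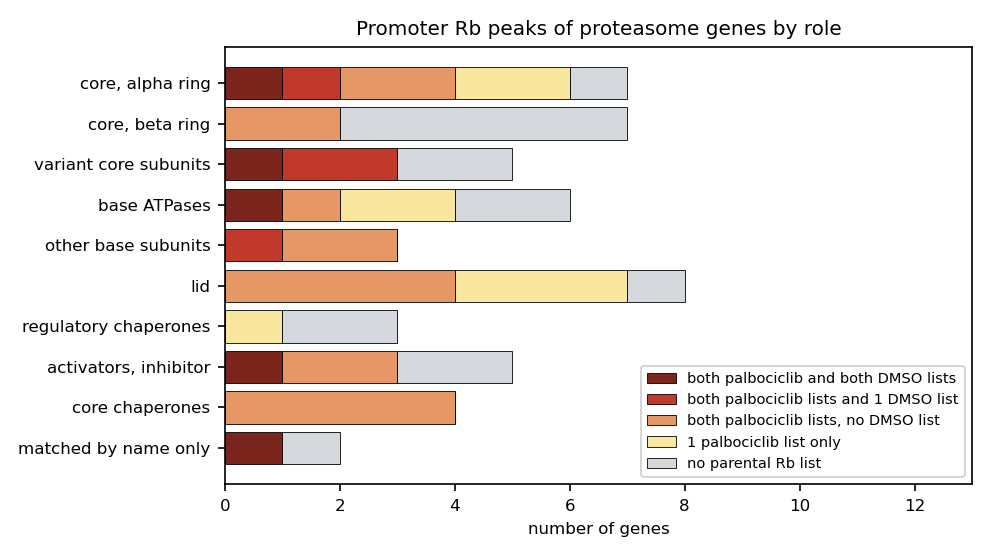
Number of proteasome genes (x axis) in each role (rows), split by the parental Rb lists that hold a promoter peak. The beta ring row is mostly grey, with 5 of 7 genes in no list, while all 4 core chaperones were in both palbociclib lists.

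The 5 members called in all 4 parental lists were PSMC5, PSME2, PSMA1, PSMB10 and PSMC3IP. Printed here are windows under Rb peaks that hold E2F or ARE letters (PSMA1, PSME2 and PSMB3) or a pair of NFY boxes (PSMA5), and windows of uncalled promoters. For called members only windows with such letters were printed, so these windows cannot show a contrast with uncalled promoters. The RefSeq promoter windows of PSMB2 and PSMB5 also hold an NFY box, outside the printed bases. Each holds 151 bases of hg38, 5′ to 3′ along the gene's strand. Capitals mark matches on either strand to the E2F letters TTTCCCGC, TTTGGCGC, TTTCGCGC or TTTGCCGC, the ARE core TGACNNNGC, the NFY box CCAAT or the SP/KLF box GGGCGG. The first pair are centred on the DMSO replicate 1 summit, PSMA5 and PSMB3 on the palbociclib replicate 1 summit, and PSMB2 and PSMB5, which had no peak, lie just upstream of the TSS.
PSMA1, chr11:14520456-14520606, minus strand: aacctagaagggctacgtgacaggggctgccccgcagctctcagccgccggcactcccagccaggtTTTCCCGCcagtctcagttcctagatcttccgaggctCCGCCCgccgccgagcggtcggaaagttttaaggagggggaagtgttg
PSME2, chr14:24146738-24146888, minus strand: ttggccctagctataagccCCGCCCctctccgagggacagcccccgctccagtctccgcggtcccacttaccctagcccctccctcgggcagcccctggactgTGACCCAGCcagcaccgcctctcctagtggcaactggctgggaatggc
PSMA5, chr1:109426458-109426608, minus strand: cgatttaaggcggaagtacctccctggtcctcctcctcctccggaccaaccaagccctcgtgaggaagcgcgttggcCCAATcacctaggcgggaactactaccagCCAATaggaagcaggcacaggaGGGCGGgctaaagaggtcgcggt
PSMB3, chr17:38752574-38752724, plus strand: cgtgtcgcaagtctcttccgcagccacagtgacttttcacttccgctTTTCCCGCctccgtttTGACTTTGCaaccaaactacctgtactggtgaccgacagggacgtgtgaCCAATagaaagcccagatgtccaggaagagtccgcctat
PSMB2, chr1:35641536-35641686, minus strand: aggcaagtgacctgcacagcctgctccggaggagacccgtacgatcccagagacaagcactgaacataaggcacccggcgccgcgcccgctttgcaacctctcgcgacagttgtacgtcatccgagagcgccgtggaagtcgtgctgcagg
PSMB5, chr14:23034910-23035060, minus strand: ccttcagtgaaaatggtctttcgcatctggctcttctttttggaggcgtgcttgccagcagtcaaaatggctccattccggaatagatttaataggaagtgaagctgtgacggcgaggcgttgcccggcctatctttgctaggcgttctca

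PSMC5, an ATPase of the base, had the highest peak of all members in every parental list. Its fold enrichment, which the authors' peak caller computed as fragments at the summit over the local background, was 12.7 and 13.3 with DMSO, and with palbociclib it was 61.3 and 61.3. Both palbociclib values were far above both DMSO values, and the replicates of each group lay close together. The pileup recovered at the summit was 40 and 40 fragments under DMSO, against 179 and 188 under palbociclib. By q-value the peak held ranks 49 and 31 among DMSO peaks and ranks 10 and 7 among palbociclib peaks, and its enrichment with palbociclib lay at the 99.8 percentile of other genes with a promoter peak. The peak, chr17:63826801-63828169 in palbociclib replicate 1, lies in a promoter that PSMC5 shares with FTSJ3, a gene of ribosomal RNA processing transcribed from the opposite strand. The FTSJ3 TSS is 232 bp from that of PSMC5, and the summits, at 192, 139, 141 and 118 bp downstream of the PSMC5 TSS, fell in a PSMC5 intron and the FTSJ3 5′ UTR. The peak cannot be given to either gene from its position alone.

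PSME2, a subunit of the interferon-inducible activator, had an enrichment of 4.12 and 4.42 under DMSO, against 18.9 and 15.9 under palbociclib. The DMSO peaks ranked 930 and 780 by q-value, near the end of their lists, and the palbociclib values did not overlap them. With distances from the TSS counted as negative upstream, the DMSO summits lay at -203 and -250 bp, beside the ARE letters printed above, which start at -175 bp. In palbociclib replicate 1 the summit lay at -795 bp, nearer to the divergent gene RNF31, a ubiquitin ligase component, and in replicate 2 it lay at -122 bp.

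PSMA1, an alpha ring subunit, had an enrichment of 6.36 and 5.93 under DMSO, against 14.5 and 12.3 under palbociclib. The pileup behind these values was 9 and 8 fragments against 21 and 18. All summits lay upstream of the TSS, at -145 and -179 bp under DMSO and at -232 and -195 bp under palbociclib, close to the E2F letters that start at -154 bp in the printed window.

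PSMB10, a catalytic subunit of the immunoproteasome, had an enrichment of 5.46 and 8.64 under DMSO, against 18.4 and 17.6 under palbociclib. The summits lay inside the gene, 832 to 1033 bp downstream of the main TSS and within 77 bp of an alternative TSS. In all 4 libraries the nearest main TSS was that of another protein-coding gene, ENSG00000261884. With only main TSSs counted, PSMB10 was in neither the DMSO nor the palbociclib count. The peak cannot be given to PSMB10 from its position alone. PSMC3IP, a factor of homologous recombination and no proteasome subunit, had 7.14 and 3.65 under DMSO, and 13.3 and 15.5 with palbociclib. Its DMSO replicates were the most unequal of the 5, yet both palbociclib values were above both. E2F letters start 31 bp downstream of the PSMC3IP TSS.

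**Figure D3:**
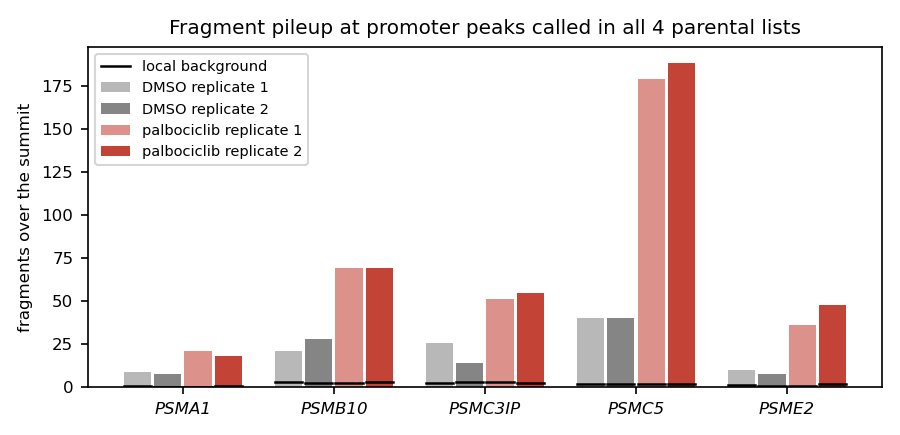
Fragments over the summit of the highest promoter peak (y axis), recovered from the deposited lists, for the 5 members called in all 4 parental lists. Bars are single libraries and black lines the local background. PSMC5 reached 179 and 188 fragments with palbociclib, and PSMA1 21 and 18.

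In all 5, both palbociclib values exceeded both DMSO values, as they did in 100% of the 575 other genes called in all 4 lists, which is the background for this direction. The fold in enrichment, palbociclib over DMSO, was 4.71 for PSMC5, with 4.60 to 4.82 over the pairs of libraries. It was 4.06 for PSME2 (3.60 to 4.58), 2.82 for PSMC3IP (1.87 to 4.26), 2.62 for PSMB10 (2.03 to 3.37) and 2.17 for PSMA1 (1.93 to 2.45). Each exact two-sided permutation test gave p = 0.3333, the smallest this design allows. The median over the 5 was 2.82, beside 3.68 for other genes (quartiles 3.11 to 4.39).

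Another 4 members were in both palbociclib lists and 1 DMSO list. PSMA5, an alpha ring subunit, had an enrichment of 6.25 in DMSO replicate 1 and 15.2 and 15.1 with palbociclib. PSMD4, the ubiquitin receptor of the base, had 5.35 in DMSO replicate 1 and 5.79 and 5.87 with palbociclib. The palbociclib values of PSMA5 were above its DMSO value by more than the gap between replicates, and those of PSMD4 were only slightly above. PSMB8, a catalytic subunit of the immunoproteasome, had 6.23 in DMSO replicate 2 and 19.6 and 28.1 with palbociclib. PSMB9, its neighbour on chromosome 6, was called through the same peaks, chr6:32844297-32845061 in palbociclib replicate 1, which reach an alternative PSMB9 TSS, so both genes rest on 1 measurement. At the main PSMB9 TSS, next to the peptide transporter gene TAP1, a separate peak was called only in palbociclib replicate 1, with 8.36.

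The genes of the immunoproteasome and its activator stood near the top. PSMB8, PSMB9, PSMB10, PSME2 and PSME1 followed PSMC5 directly when members were ordered by mean enrichment over both palbociclib lists (23.8, 23.8, 17.98, 17.4 and 15.6). PSME1 had 16.5 and 14.7 with palbociclib and no DMSO peak. PSMB5, PSMB6 and PSMB7, the constitutive catalytic subunits that PSMB8, PSMB9 and PSMB10 replace, had no promoter peak in any list. This grouping was made after the values were seen and was not tested, and PSMB8 and PSMB9 share their peaks. The PSMB10 summits, and the PSME2 summit in palbociclib replicate 1, were nearest to the main TSS of another gene. With only main TSSs counted, PSMB9 and PSMB10 were not in both palbociclib lists.

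**Figure D4:**
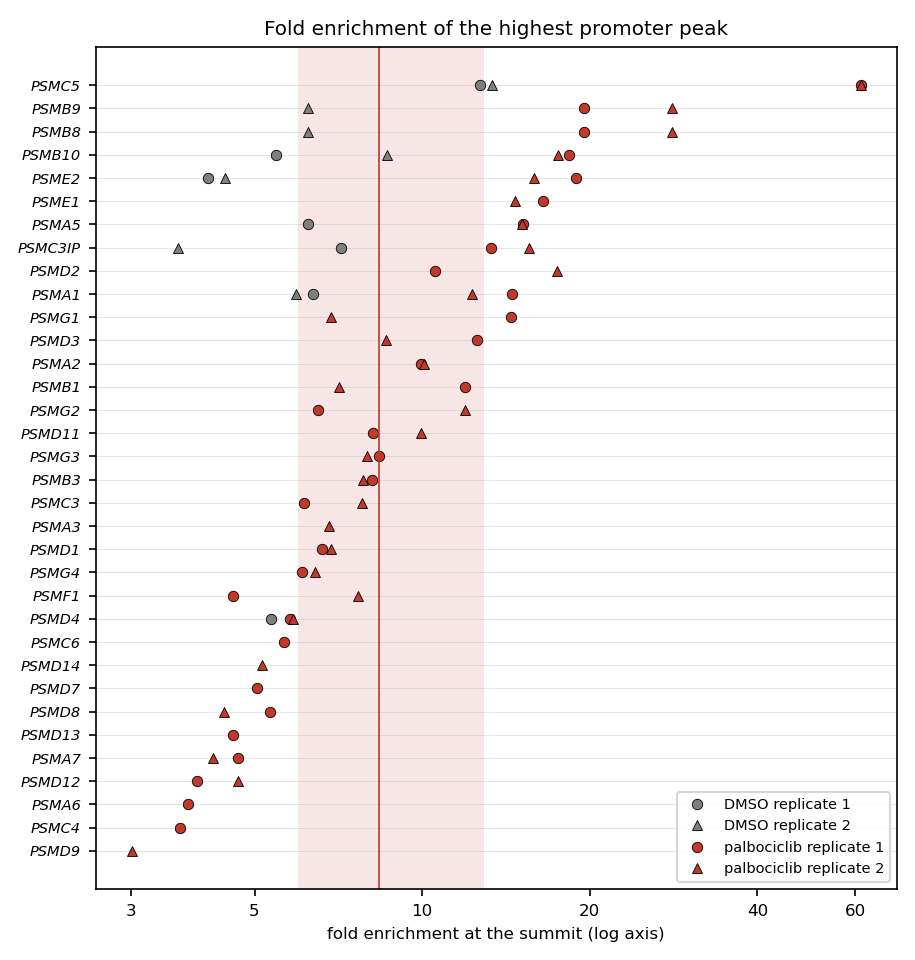
Fold enrichment of the highest promoter peak (x axis, log scale) for the 34 proteasome genes called in at least 1 palbociclib list, by library. The line and band are the median, 8.35, and quartiles, 5.99 to 12.9, of other genes called in both palbociclib lists. PSMC5 stands apart at 61.3, and PSMD9 is lowest at 3.01.

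The 17 members gained with palbociclib covered most roles. Over these and the other 9 members called in both palbociclib lists, the median enrichment was 9.76 (quartiles 6.79 to 15.0), beside 8.35 (5.99 to 12.9) for other genes, 6.43 for cytosolic and 8.002 for mitochondrial ribosomal protein genes. In single lists member medians were 8.17 and 7.97 and those of other genes 7.75 and 7.75, so the quartiles overlapped throughout. PSMD2, a scaffold of the base, had 10.6 and 17.4. PSMG1, a chaperone of core assembly, had 14.4 and 6.86, the largest ratio between replicates among the 26. Apart from PSME1, described above, the remaining gained members lay between 3.94 and 12.6.

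Several gained peaks lay at promoters shared with other genes. At PSMA2, an alpha ring subunit with 9.94 and 10.1, the summits lay between its TSS and that of MRPL32, a mitochondrial ribosomal protein gene that starts at -202 bp. At PSMB1, a beta subunit, the highest peaks (11.9 and 7.098) lay at -1214 and -1178 bp, in an intron of TBP, which encodes the TATA-binding protein. The peaks at the PSMB1 TSS itself were lower, at 3.67 and 5.19. PSMG2 had 6.50 and 11.9, and CEP76, a centrosomal protein gene on the opposite strand, starts at -319 bp. The summit of its IgG2a peak, with an enrichment of 5.48 and 7 fragments, lay at -570 bp, and the end of that peak overlapped only the first bases of the palbociclib peaks.

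Of the 5 lowest members called in both palbociclib lists, all but PSMF1 had a mean under the lower quartile of other genes, 5.99. PSMD12, a lid subunit, had 3.94 and 4.67, although its pileup was 22 and 28 fragments, since its local background was 4.84 and 5.21 fragments. Median backgrounds at the members' peaks were 1.54 and 1.53. PSMA7, an alpha subunit, had 4.67 and 4.22, and PSMD8, a lid subunit, 5.33 and 4.40. PSMD4 (above) and PSMF1, the inhibitor, with 4.57 and 7.67, completed the lowest 5.

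In 8 members a peak was called in 1 palbociclib list only. In replicate 1 these were PSMC6 (5.66) and PSMC4 (3.67) of the base ATPases, PSMD7 (5.04) and PSMD13 (4.57) of the lid, and PSMA6 (3.80) of the alpha ring. In replicate 2 they were PSMA3 (6.81) of the alpha ring, PSMD14 (5.16), the deubiquitinase of the lid, and PSMD9 (3.01), a chaperone of the regulatory particle. All 8 were below 7.75, the median of other genes with a peak in the same list. That median also covers genes called in both lists, and a call in 1 list only selects for peaks near the cutoff. Values of other genes called in 1 list only are not reported here.

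The 16 members without a promoter peak in any list included most of the constitutive beta ring. At least 1 palbociclib list called 2 of 7 genes of that ring (28.6%, exact 95% binomial interval 3.67 to 71.0%). The same rule called 68% of members and 43.7% of other genes, and both lie within that interval. They were PSMB2, PSMB4, PSMB5, PSMB6 and PSMB7 of that ring, and PSMA4 of the alpha ring. PSMA8 and PSMB11, core subunits of testis and thymus, were also uncalled. From the regulatory particle they were the ATPases PSMC1 and PSMC2, the lid subunit PSMD6 and the chaperones PSMD5 and PSMD10. The activators PSME3 and PSME4, and PSME3IP1, were uncalled as well. The nearest palbociclib summit lay 5866 bp (PSMB6) to 355701 bp (PSMB7) from their TSSs in replicate 1, with a median of 51119 bp, and 54517 bp in replicate 2. Such distances for other uncalled genes are not reported here.

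The summits of called members lay close to the TSS, as over the genome. The median distance was -92 and -40 bp with palbociclib and -11 and -179 bp with DMSO, negative meaning upstream. Other genes had -56 and -63 bp, and -123.5 and -129 bp. With palbociclib 22 of 31 (71.0%) and 24 of 29 (82.8%) member summits were within 250 bp of the main TSS, against 66.6% and 67.2% of other genes. Member peaks had a median width of 570.5 and 541.5 bp with palbociclib, and those of other genes 504 and 491 bp.

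**Figure D5:**
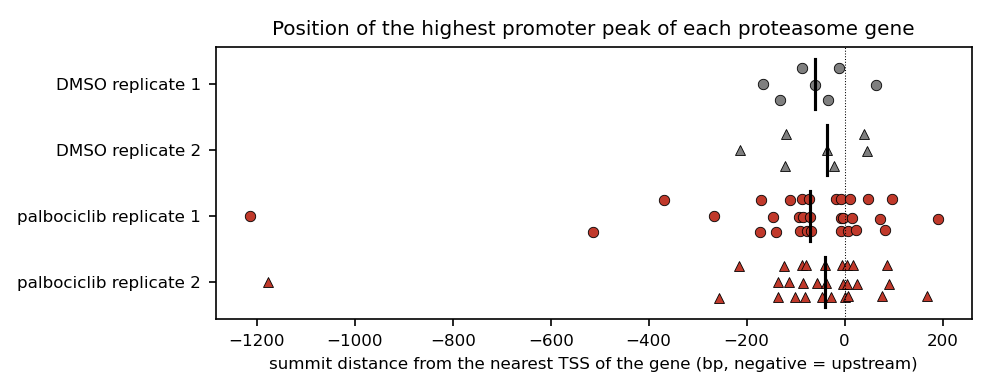
Distance of the highest promoter peak's summit from the nearest TSS of the gene (x axis, bp) in each parental Rb library, 1 symbol per proteasome gene and black lines at medians. Vertical spread within a row only separates the symbols. Most summits lie within 250 bp of a TSS, and the far points at -1214 and -1178 are PSMB1.

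Promoter letters were counted in the RefSeq windows (GRCh38.p14, 250 bp before to 50 bp after the gene start) of 44 members and 15272 other genes, on both strands. The ARE core TGACNNNGC was in 13 member promoters (29.5%) and 14.3% of others, and the ETS letters CCGGAAGT in 8 (18.2%) and 6.30%. ARE letters stood in 9 of 22 members called in both palbociclib lists and in 2 of 14 uncalled ones, and ETS letters in 2 of 22 and 4 of 14. The NFY box CCAAT was in 21 (47.7%, others 36.5%) and the SP/KLF box GGGCGG in 30 (68.2%, others 59.2%). E2F letters were in 4 members, PSMA1, PSMB3, PSMD5 and PSMD9 (9.09%, others 4.49%). The CHR letters TTTGAA or TTCGAA were in 5 (11.4%, others 13.4%), the CRE letters TGACGTCA in 0 (others 2.65%) and the nuclear respiratory factor 1 motif in 1 (2.27%, others 1.72%). By the same split into called and uncalled members, the SP/KLF box was in 18 of 22 and 5 of 14. The NFY box was in 10 of 22 and 8 of 14, E2F letters in 2 of 22 and 1 of 14. CHR letters were in 1 of 22 and 2 of 14, and the nuclear respiratory factor 1 motif in 0 of 22 and 1 of 14. These splits were not tested. The same split over other genes is not reported here, so they cannot be read as particular to members. The SP/KLF box can lie beside E2F letters, and both may count for the same promoter.

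Within 100 bp of the summit, E2F letters were found at 2 of 7 member peaks (PSMA1 and PSMC3IP) in DMSO replicate 1 and at 2 of 6, from the same genes, in replicate 2, against 11.01% and 12.1% of other promoter peaks. With palbociclib they were found at 2 of 30 and 3 of 28 member peaks, against 5.44% and 5.65%. ARE letters were found at 8 of 30 and 4 of 28, against 9.66% and 10.1%. The SP/KLF box was less frequent than at other peaks, at 18 of 30 (60%) and 18 of 28 (64.3%), against 68.8% and 70.0%. These matches describe letters and not binding by a factor.

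The partners of the proteasome were taken from a list of 30 genes for its regulators, ubiquitin precursors and shuttles. Both palbociclib lists held 19 of them (63.3%) and both DMSO lists 2 (6.67%), beside the 34.9% and 2.89% of other genes. NFE2L1, the activator of the subunit genes, was in all 4 parental lists, with 6.91 and 6.81 under DMSO, and 19.97 and 22.5 with palbociclib. UBE3C, a ubiquitin ligase that acts on the proteasome, had 5.76 and 5.61 under DMSO, and 28.6 and 22.5 with palbociclib. Their groups did not overlap, and the folds were 3.09 and 4.47 with p = 0.3333 each by the exact permutation test.

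Among the other partners, USP14, a deubiquitinase of the regulatory particle, had 17.0 and 13.4 with palbociclib and no DMSO peak. UCHL5, another proteasome deubiquitinase, had 6.20 in DMSO replicate 1 and 7.65 and 7.03 with palbociclib. For UFD1, a cofactor of the segregase VCP, the DMSO replicate 2 peak (5.89) had its summit 74 bp downstream of the TSS. Its palbociclib peaks (11.5 and 6.38) had theirs at -840 and -748 bp, nearest to CDC45, a replication factor gene, so the values lie at different places. The UCHL5 summits in both replicates 1 were also nearest to another gene, RO60. In all, 15 partners were gained (50%, interval 31.3 to 68.7%), against 28.3% of other genes and 40.6% of other CpG-rich genes. Of the rest, 4 were in 1 palbociclib list, and 7 had no peak. Among these were the core maturation factor POMP, UBB, UBQLN1, ZFAND2A and ZFAND5. No partner had a peak in an RB1 KO or IgG2a list.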

How the data were processed

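BBDuk was used by the authors for trimming, Bowtie2 2.3.4.1 for alignment to hg38, and MACS2 2.2.7.1 for calling each library's peaks against an IgG control at a q-value of 0.05. The submitters' processing notes also name deepTools 3.5.0 and DiffBind. The deposited lists give positions, a display score, the fold enrichment at the summit and the −log10 p and −log10 q values. From the authors' enrichment, pileup plus 1 over background plus 1, and the p-value, the whole-number pileup was recovered (largest misfit 0.000656 in −log10 p).

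Peaks were assigned to GENCODE 44 promoters on GRCh38 by an overlap of at least 1 bp, and 0 peaks ran past a chromosome end. The highest peak of a gene gave its value. Assignment and recovery were tested on simulated data. Members and lists were chosen with earlier results of these data known. All members were accounted for. Values were given for those called with DMSO, the 10 highest and 5 lowest with palbociclib, those in 1 palbociclib list and those in the control lists, plus PSMA2, PSMB1 and PSMG2 at shared promoters, PSMG1, and the constitutive beta subunits, which were chosen after values were seen. Partners were named by the same rule with the 3 highest. Some partners are not reported here by name. Each group's libraries also serve in every comparison made with it. Promoter sequences were taken from RefSeq (44 of 50 members), and printed windows from hg38. PSMA7, PSMB1, PSMB6, PSMB7, PSMD4 and PSMG3 had no entry in that table. Tests were exact permutation tests of log2 enrichment in SciPy 1.17.1.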

Additional observations from a re-analysis of the deposited data

How the results depend on the processing

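With lists of equal length the order of the DMSO and palbociclib counts turned, from 5 against 26 to 4 against 2. Apart from that order, no ratio, fold or median summit distance reversed its direction under any alternative run. The comparison with CpG-rich genes given below kept all 50 members, whatever their promoter. With CpG-rich members only, the order of the shares in both palbociclib lists did turn, at 48.6% against 50.02% of other CpG-rich genes. The 26 members called in both palbociclib lists fell to 2, and the 17 gained to 0, with only the top 816 peaks of every parental list kept, which by construction removes most of the longer lists. The 5 members called in both DMSO lists became 2 with −log10 q of at least 5, 3 with enrichment of at least 5, 2 without genes that have another TSS within 1000 bp, and 3 when a peak counted only for the nearest protein-coding TSS, an alternative chosen after seeing the data. That last setting also took 6 members, PSMA2, PSMB9, PSMB10, PSMC5, PSME2 and PSMG2, out of the palbociclib count. The ratio of the member share to that of other genes in both DMSO lists, 3.46, was 2.50, 2.95, 2.35 and 2.80 under these 4 settings, 3.02 with lists of equal length, 3.04 with the canonical TSS only, 2.89 without PSMC3IP and PSME3IP1, and 2.41 against CpG-rich genes. The same ratio with palbociclib, 1.49, was 1.72 with the stricter q, 1.62 with the enrichment minimum, 1.05 with equal lengths, 1.61 without close TSSs, 1.39 by nearest TSS and 1.04 against CpG-rich genes. The ratio of median enrichment, 1.17, was 1.19 for the peak nearest to the TSS and 1.05 for recovered pileup. The median summit distance, -70.75 bp, was -32.25 bp from the nearest TSS of any transcript. The causes of these shifts were not tested.

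Without 1 replicate, a call rests on the remaining list. The counts then ranged from 7 to 7 (DMSO), 29 to 31 (palbociclib) and 19 to 22 (gained), the share ratios from 2.69 to 3.29 and 1.49 to 1.57, the ratio of median enrichment from 1.03 to 1.06, and the median summit distance from -93 to -52 bp. With a replicate block, the fold of PSMC5 stayed 4.71 and the folds of the other 4 also kept their values, with the smallest possible p at 0.5 in place of 0.3333, and no call changed. Deviations of same-numbered replicates had a correlation of 0.0648 over 580 genes, so the numbers were not treated as pairing.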
